A study of Homo sapiens with 47 samples.

Results

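The 43 genes described here are the mitotic kinases, cyclins and spindle genes of the human transcriptome: the kinases and cyclins that start mitosis, the spindle checkpoint, the machinery of mitotic exit, the chromosomal passenger complex, the kinetochore, the spindle motors, the cytokinesis genes and 2 proliferation-linked chromosome proteins. They were chosen by gene symbol from a list of names, with no threshold on their values, although earlier results of these data were known when the list was drawn up. All 43 symbols were found among the 57507 genes of the table, all 43 passed the filter on low values in every comparison, and they lie on 18 chromosomes. Together they held between 0.348% and 0.566% of the summed FPKM of a HAP1 library and between 0.188% and 0.598% of that of an HCT116 library. FPKM counts fragments per length of transcript and per mapped fragments of the library, so levels can be compared between genes per length of transcript.

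RNA was sequenced from 47 libraries of 2 human cell lines in which NUP58, a channel nucleoporin of the nuclear pore, had been edited. HAP1, a near-haploid line derived from chronic myeloid leukaemia, gave 32 libraries: unedited WT cells, cells given the Cas9 vector without a guide (EV), and 6 NUP58 mutant clones (C1 to C6), each with 4 replicates. HCT116, a colorectal carcinoma line, gave 15: 4 of a NUP58 mutant clone and 11 of unedited cells (WT and the vector lines EV1 and EV2), which were treated as 1 control group because the title and the genotype of 2 of them conflict. The clones were made by transfection of Cas9 with a pair of guides to NUP58, were grown from single cells and were sequenced at passage 1, and the HAP1 clones were chosen as the 6 smallest that survived. Each clone is therefore a single clone, and a difference of a clone from WT can belong to NUP58, to the clone or to its selection, which cannot be told apart here. The study calls the HAP1 libraries of a line independent experimental replicates, and it describes those of HCT116 as biological replicates in one place and as technical replicates in another. The p-values below measure the spread between these libraries, which in HCT116 may be technical.

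NUP58 itself was read first as a check of the labels. In HAP1 it lay between 34.3 and 50.4 FPKM in the 8 unedited libraries and between 7.98 and 28.0 FPKM in the 24 clone libraries, with no overlap. In HCT116 2 libraries went against their labels. The library labelled clone replicate 3 had 44.7 FPKM, whereas the other clone libraries had 25.3, 23.3 and 24.3 FPKM. The library labelled EV2 replicate 3 had 23.9 FPKM, whereas the other 10 controls lay between 28.7 and 50.3 FPKM. Both were kept under their labels, and values without them, or without all HCT116 libraries numbered 3, are given beside some of the results of HCT116. Of 8 colorectal epithelial markers, 3 had a median of at least 1 FPKM in HCT116 (summed level 371 to 933 FPKM) and 0 in HAP1 (summed level 0.764 to 17.7 FPKM).

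Entry into mitosis is driven by the kinase CDK1 bound to cyclin B. CDC25 phosphatases remove the inhibitory phosphates from CDK1, PLK1 and the Aurora A kinase strengthen this switch, and FOXM1 is the transcription factor that raises many of these genes in G2. Once chromosomes are attached to the spindle through the kinetochores, the spindle checkpoint releases CDC20, and the anaphase promoting complex with UBE2C marks cyclin B and securin for destruction. Most of these mRNAs are low in G1 and high in G2 and M, so their level in a population of cycling cells moves with the share of cells in those phases. In bulk RNA, fewer cells in G2 and M and less mRNA per cell cannot be told apart.

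Genes of this kind are classically described as sharing promoter elements, the CCAAT box and the cell cycle genes homology region (CHR). RefSeq promoters (GRCh38.p14, 250 bases before to 50 after the start) were matched for 36 of the 43 genes. TTTGAA, the usual CHR spelling, was found on either strand in 24 of the 36 promoters (66.7%) and in 15.4% of all 27305 promoters. The rarer spelling TTCGAA was in 2 of 36 (5.56%) and in 1.45% of all, and CCAAT was in 28 of 36 (77.8%) and in 35.7% of all. Both elements together, with either CHR spelling, were in 21 of 36 (58.3%) and in 6.58% of all. The 200 bases upstream of the start are shown for 6 genes on which the results below turn: *CDK1*, *CCNB1*, *PLK1* and *CDC20*, which moved with the rest in HCT116; *SPC24*, which fell in HAP1 clones; and *CDC25B*, which fell in HAP1 clones and ran against the rest in HCT116. Each is read 5′ to 3′ on the strand of the gene, and capitals mark CCAAT or its reverse complement, which begins ATT, and TTTGAA or its reverse complement, which begins TTC.
CDK1 (chr10:60778131-60778330, plus strand): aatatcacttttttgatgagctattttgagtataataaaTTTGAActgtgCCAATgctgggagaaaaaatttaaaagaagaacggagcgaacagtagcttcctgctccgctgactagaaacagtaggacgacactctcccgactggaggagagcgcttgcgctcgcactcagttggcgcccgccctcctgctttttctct
CCNB1 (chr5:69166950-69167149, plus strand): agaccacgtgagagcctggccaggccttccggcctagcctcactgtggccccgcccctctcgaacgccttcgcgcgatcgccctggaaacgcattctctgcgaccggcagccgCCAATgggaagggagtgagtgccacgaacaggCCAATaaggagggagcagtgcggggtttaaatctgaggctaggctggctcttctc
PLK1 (chr16:23678689-23678888, plus strand): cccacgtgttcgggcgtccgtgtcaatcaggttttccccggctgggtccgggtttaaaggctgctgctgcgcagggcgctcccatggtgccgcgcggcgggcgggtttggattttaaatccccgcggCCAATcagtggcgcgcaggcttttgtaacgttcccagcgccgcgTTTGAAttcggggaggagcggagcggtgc
CDC20 (chr1:43358781-43358980, plus strand): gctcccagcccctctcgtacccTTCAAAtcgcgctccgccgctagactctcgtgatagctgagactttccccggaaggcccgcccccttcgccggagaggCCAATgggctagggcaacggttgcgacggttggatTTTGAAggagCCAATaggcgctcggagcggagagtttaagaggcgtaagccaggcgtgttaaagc
SPC24 (chr19:11155783-11155982, minus strand): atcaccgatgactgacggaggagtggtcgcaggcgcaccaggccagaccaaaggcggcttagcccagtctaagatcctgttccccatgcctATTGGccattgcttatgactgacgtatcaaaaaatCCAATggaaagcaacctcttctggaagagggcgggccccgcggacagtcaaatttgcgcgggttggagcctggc
CDC25B (chr20:3786751-3786950, plus strand): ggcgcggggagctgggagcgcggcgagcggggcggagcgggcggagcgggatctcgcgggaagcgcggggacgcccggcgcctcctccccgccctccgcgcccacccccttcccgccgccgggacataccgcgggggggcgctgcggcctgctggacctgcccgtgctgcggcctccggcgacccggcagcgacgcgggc
Neither element was found in the 300-base window of *CDC25B* or of *CDC25C*, *CENPE* and *KIF2C*. These matches describe letters and were not tested as binding sites. A single window was read per gene, so elements near other starts of a gene would not be seen.

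In the mean of the 6 HAP1 clones, 4 of the 43 genes were lower than in WT and none was higher (limma on log2(FPKM + 1), Benjamini-Hochberg adjusted over 13180 genes, called at an adjusted p under 0.05). Of all genes tested, 6.6% were called, 3.43% lower and 3.17% higher. The 4 were *CDK1*, *CDC25B* and *AURKA*, all from the group that starts mitosis, and *SPC24*, a subunit of the outer kinetochore NDC80 complex. The median log2 difference of the 43 genes was -0.0091, beside -0.017 over all genes, and 24 were below 0. None of the 5 checkpoint genes, the 4 exit genes, the 4 passenger complex genes, the 6 spindle genes, the 5 cytokinesis genes or the 2 chromosome genes was called.

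**Figure D1:**
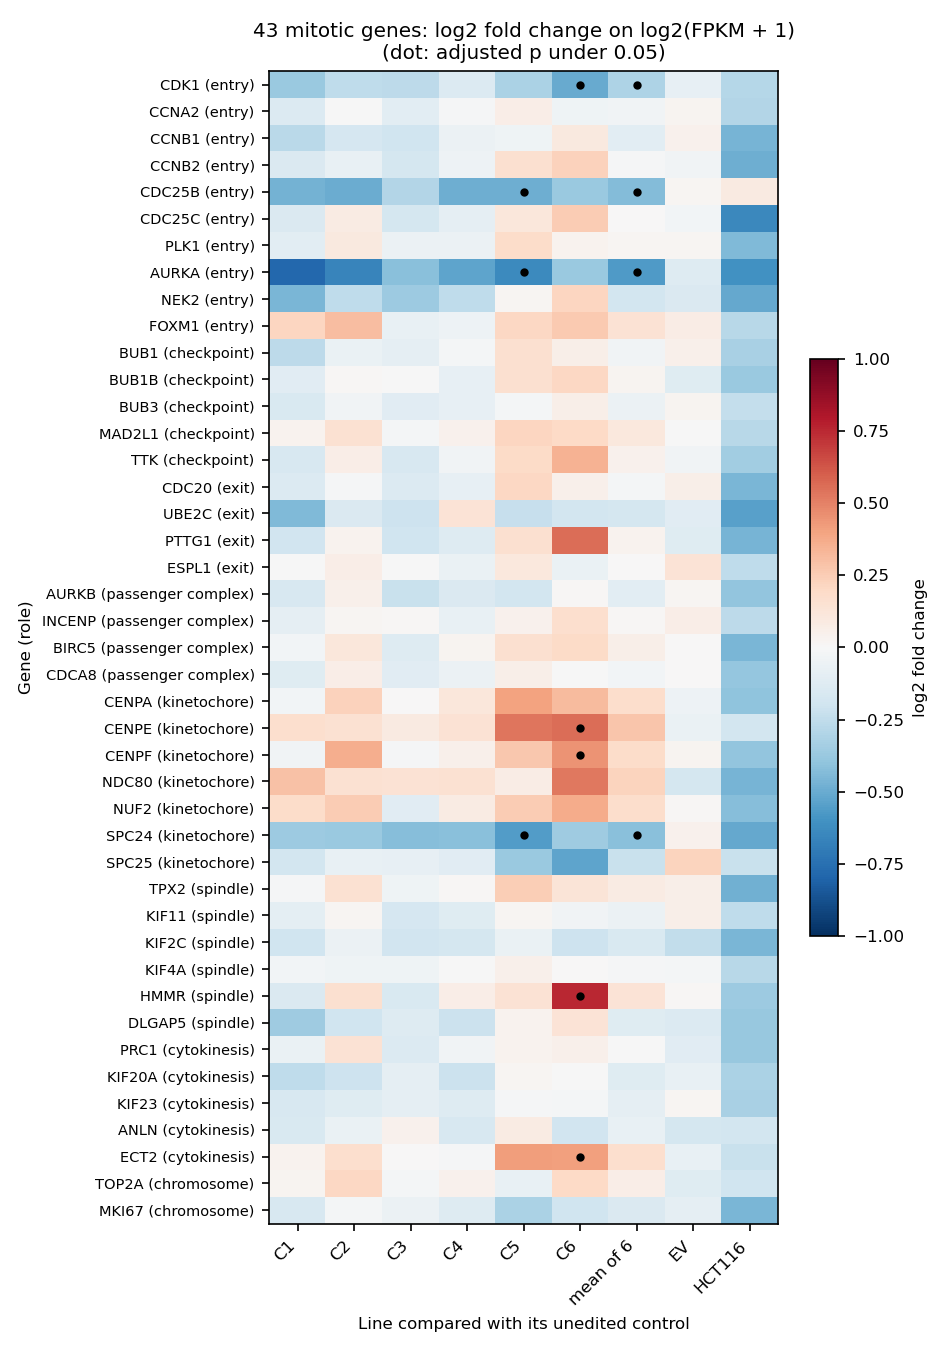
Log2 fold change on the log2(FPKM + 1) scale (colour) of each of the 43 genes (rows, with their role) in each line against its unedited control (columns); EV is the vector line without a guide, and dots mark an adjusted p under 0.05. Rows for CDK1, CDC25B, AURKA and SPC24 are blue across the HAP1 clones, the EV column is pale throughout, and the HCT116 column is blue for 42 of 43 genes with no dot.

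*CDC25B*, the phosphatase that activates CDK1 at the start of mitosis, fell with the smallest adjusted p of the 43. WT had 39.1, 37.98, 37.3 and 47.03 FPKM in replicates 1 to 4, and EV had 40.5, 40.6, 39.1 and 42.9 FPKM. The 24 clone libraries ranged from 23.6 to 35.96 FPKM with a median of 29.2 FPKM. Every clone library thus lay below every WT and EV library, and *CDC25B* was the only one of the 43 genes that was lower in all 24 than in all 4 WT libraries (0.243% of all genes were). The log2 difference was -0.43 (SE 0.073, adjusted p = 0.000258, limma). By clone, the mean went from 28.3 ± 0.724 FPKM in C2 (SD, n = 4) to 32.8 ± 3.49 FPKM in C3, against 40.3 ± 4.53 FPKM in WT.

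*AURKA* (chromosome 20, positions 56369389 to 56392337, minus strand, GRCh38) encodes Aurora A, the kinase of centrosomes and spindle poles. Its level was 101, 113, 74.4 and 105 FPKM in WT and 95.8, 84.6, 81.6 and 92.2 FPKM in EV. In the clone libraries it lay between 37.6 and 88.2 FPKM, with a median of 64.9 FPKM. WT replicate 3 was the low one of its group and overlapped the higher clone libraries, which came from C3, C4 and C6. The log2 difference was -0.57 (SE 0.12, adjusted p = 0.00471, limma), the lowest of the 43.

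*CDK1*, the kinase at the centre of mitotic entry, stood at 164, 182, 142 and 175 FPKM in WT. EV had 153, 156, 148 and 167 FPKM, and the clone libraries lay between 101 and 178 FPKM with a median of 137 FPKM. The lowest 4-library mean was that of C6 (116 ± 11.6 FPKM, SD, n = 4) and the highest clone mean that of C4 (151 ± 18.1 FPKM), whose replicate 4 was as high as the upper WT libraries. The log2 difference was -0.31 (SE 0.073, adjusted p = 0.00876, limma). This call did not hold with EV in place of WT (-0.22, adjusted p = 0.0526), without the libraries numbered 2 (-0.24, adjusted p = 0.079), or without WT replicate 2 (adjusted p = 0.0616) or WT replicate 4 (adjusted p = 0.0579).

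*SPC24* was the lowest expressed of the 4, with 17.6, 18.7, 15.6 and 16.6 FPKM in WT and 17.3, 19.0, 16.0 and 18.3 FPKM in EV. The clone libraries ranged from 8.77 to 16.6 FPKM with a median of 12.4 FPKM. Only C3 replicate 1 and C6 replicate 2 reached the WT range. The log2 difference was -0.42 (SE 0.11, adjusted p = 0.0152, limma), and it missed the threshold without WT replicate 1 (adjusted p = 0.0665) or WT replicate 2 (adjusted p = 0.0713).

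**Figure D2:**
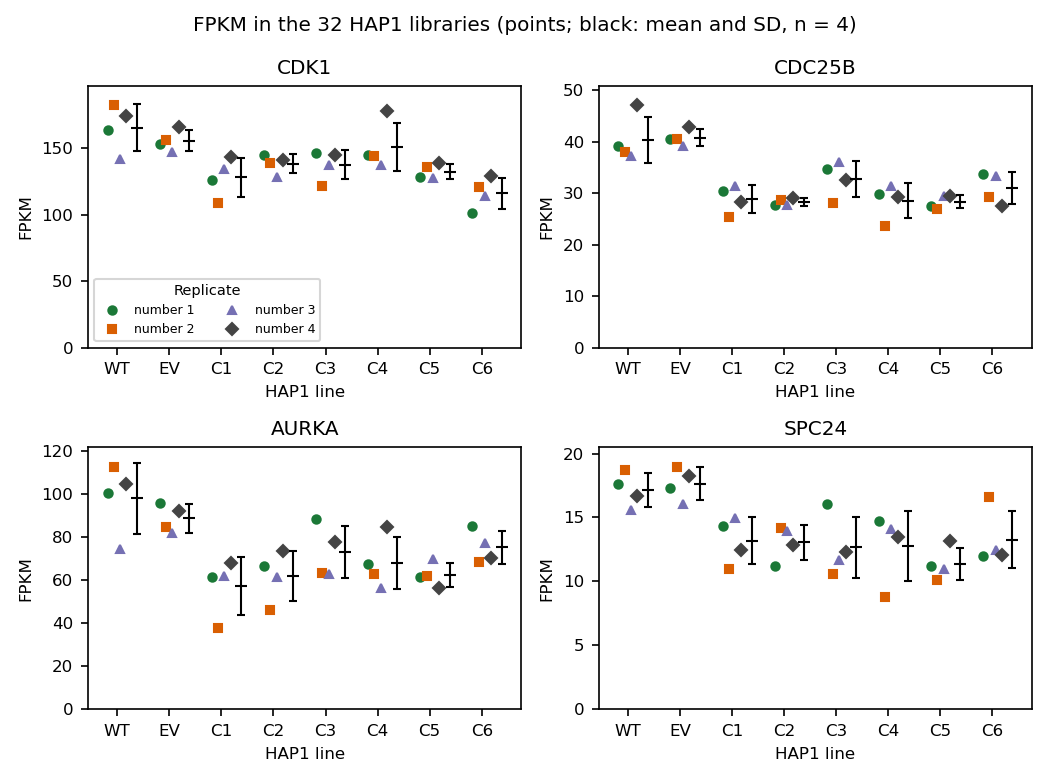
FPKM (linear axis from 0) of CDK1, CDC25B, AURKA and SPC24 in the 32 HAP1 libraries; each point is a library, its shape and colour give the replicate number, and the black bar gives the mean and SD of 4 libraries. CDC25B is the gene in which all 24 clone libraries (23.6 to 35.96 FPKM) lie under all WT and EV libraries.

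Within each replicate number the clone mean was below WT for all 4 of these genes. The difference for *CDC25B* was -0.35, -0.48, -0.24 and -0.66 in numbers 1 to 4, and for *AURKA* it was -0.50, -1.01, -0.20 and -0.55. For *CDK1* it was -0.32, -0.51, -0.13 and -0.26, and for *SPC24* -0.40, -0.64, -0.25 and -0.36. The size differed between numbers, being lowest in number 3 for each gene. Over the genes within 5 Mb the median log2 difference was 0.10 for *CDK1* (6 of 18 neighbours lower), -0.017 for *CDC25B* (35 of 62 lower), 0.0098 for *AURKA* (12 of 26 lower) and -0.073 for *SPC24* (126 of 186 lower).

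The known partners of these genes were not called. *CCNB1*, the cyclin B1 that activates CDK1, differed by -0.11 on the log2 scale (SE 0.14, adjusted p = 0.746, limma), and *CCNA2* and *CCNB2* by -0.037 and -0.0084. *PLK1*, the kinase that promotes entry and centrosome maturation, differed by 0.016 (SE 0.12), *FOXM1* by 0.14 (SE 0.12) and *TPX2*, the activator of Aurora A on the spindle, by 0.081 (SE 0.10). *AURKB*, the kinase of the passenger complex, differed by -0.11 (SE 0.11), and *CDC20*, the activator of the anaphase promoting complex, by -0.018 (SE 0.14). The other subunits of the NDC80 complex went in both directions: *SPC25* differed by -0.22, *NUF2* by 0.17 and *NDC80* by 0.22, none of them called. *TOP2A*, the topoisomerase that untangles sister chromatids, and *MKI67*, the Ki-67 protein that coats mitotic chromosomes, differed by 0.063 (SE 0.098) and -0.15 (SE 0.13).

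Taken clone by clone in fits of 8 libraries, no gene of the 43 was called in C1 (0.479% of all genes were), C2 (0.732%), C3 (0.0911%) or C4 (0.16%). At an unadjusted p under 0.05 these 4 clones had 4, 6, 4 and 3 of the 43 genes, beside 11.7%, 12.7%, 4.8% and 6.63% of all genes. *CDC25B* had the log2 differences -0.47 in C1, -0.49 in C2 and -0.49 in C4, and *AURKA* had -0.78, -0.66 and -0.52. In each of these 4 clones, libraries of one number deviated together in all 4 pairs. With the replicate number as a block, none of the 43 was called in C1, C2 or C3 (1.5%, 1.23% and 0.622% of all genes were). In C4 that fit called *CDC25B* (adjusted p = 0.0422, limma) and *AURKA* (adjusted p = 0.034), and 2.43% of all genes. The vector line EV against WT gave 0 of 43 genes with limma, with 0 at an unadjusted p under 0.05 (2.08% of all genes) and 0.038% of all genes called, and a median log2 difference of -0.002.

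C5 had 3 of the 43 genes called, all lower: *CDC25B* by a log2 difference of -0.49 (adjusted p = 0.0216, limma), *AURKA* by -0.64 (adjusted p = 0.0208) and *SPC24* by -0.56 (adjusted p = 0.0199). Of all genes, 7.55% were called, 4.27% lower and 3.28% higher, and at an unadjusted p under 0.05 there were 9 of the 43 and 23.4% of all. The count went to 0 without WT replicate 1, WT replicate 4 or C5 replicate 1, and to 1 without C5 replicate 3 or C5 replicate 4. With the replicate number as a block it was 7, of which 4 lower with *CDK1* added and 3 higher, *CENPA*, *CENPE* and *ECT2*, beside 16.3% of all genes. The labels do not say that a number marks a shared culture, and in C5 the libraries of one number deviated together in 2 of 4 pairs. *EPCAM*, a colorectal epithelial marker, was called higher in C5, at 15.04, 16.7, 10.5 and 16.2 FPKM against 0.695 to 1.26 FPKM in WT and 132 to 253 FPKM in the HCT116 controls (log2 difference 2.97, SE 0.18, adjusted p = 4.65e-05, limma). The other 7 markers stayed at or below 1.42 FPKM in C5, with *KRT20*, *CDX1*, *VIL1* and *CEACAM5* listed at 0 in all 4 libraries. Only 3 of the 8 markers had a median of at least 1 FPKM in HCT116, so low values of the rest do not set C5 apart from HCT116. The part of the *EPCAM* level in the C5 result was not tested.

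In C6 4 genes were higher and 1 was lower, a share of the 43 close to that of all genes, of which 11.7% were called, 6.28% higher and 5.39% lower. At an unadjusted p under 0.05 there were 14 of the 43 and 26.4% of all. *HMMR*, which encodes a microtubule-binding spindle protein, stood at 94.9, 89.7, 95.1 and 73.4 FPKM in C6 and at 65.6, 64.2, 36.6 and 45.7 FPKM in WT. All 4 libraries of C6 lay above all of WT, whose replicates 3 and 4 were low. The log2 difference was 0.76 (SE 0.19, adjusted p = 0.0269, limma). *CENPE*, a kinetochore motor that carries chromosomes to the metaphase plate, rose from 11.8 ± 0.768 to 17.9 ± 1.34 FPKM (SD, n = 4), a log2 difference of 0.56 (adjusted p = 0.0102). The *CENPE* call was lost in 1 fit of all 32 HAP1 libraries (adjusted p = 0.0837), and the *HMMR* call without the filter on low values (adjusted p = 0.0629). *CENPF*, a large kinetochore protein of G2 and M, rose from 29.7 ± 3.22 to 40.8 ± 2.32 FPKM, a log2 difference of 0.45 (adjusted p = 0.0253). Of 8 fits with 1 library left out, the *CENPF* call was lost in 5, the *HMMR* call in 4 and the *CENPE* call in 0.

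*ECT2*, the exchange factor that activates RhoA at the cleavage site, rose in C6 by a log2 difference of 0.41 (adjusted p = 0.0364, limma), a call that was lost with median ratio scaling (adjusted p = 0.0588) and with the replicate block (adjusted p = 0.0725). *CDK1* fell by 0.51 on the log2 scale (adjusted p = 0.0169), to 101, 121, 114 and 129 FPKM. All 4 libraries of C6 lay above all of WT in *CENPE*, *CENPF*, *HMMR* and *ECT2* (10.6% of all genes did) and below all of WT in *CDK1*, *CDC25B* and *SPC25* (8.39% did). Genes within 5 Mb of the 4 genes that rose were also mostly higher, beside 52.8% of all genes: the neighbour median was 0.37 for *HMMR* (14 of 18 higher), 0.27 for *CENPF* (26 of 31), 0.12 for *CENPE* (25 of 35) and 0.14 for *ECT2* (15 of 22). Whether these neighbourhoods play a part in the result was not tested. *HMMR* overlaps the antisense gene *HMMR-AS1*. Whether the counting used strand is not given in the sources used here, and without it their reads cannot be told apart. The number of genes called in C6 ranged from 1 (without C6 replicate 1 or WT replicate 4) to 9 (without WT replicate 2), and was 2 without C6 replicate 2 or C6 replicate 3. Of 8 fits with 1 library left out, the *ECT2* call was lost in 6 and the *CDK1* call in 2.

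Between the 6 clones, 2 of the 43 genes differed in an F test over all HAP1 libraries, *HMMR* (adjusted p = 0.0367, limma) and *TTK* (adjusted p = 0.0405), with 15.8% of all genes called. *TTK* encodes the checkpoint kinase MPS1. Both had their highest mean in C6: *HMMR* was 88.3 ± 10.2 FPKM in C6 and 47.2 ± 12.3 to 59.0 ± 14.4 FPKM in the other clones, and *TTK* was 42.9 ± 4.28 FPKM in C6 and 30.1 ± 5.01 FPKM in C3, the lowest (SD, n = 4). With median ratio scaling neither was called (adjusted p = 0.125 for *TTK* and 0.0554 for *HMMR*, limma). The count was 0 without any one of C6 replicates 1, 2 and 3 or C3 replicates 2, 3 and 4, and 5 without C1 replicate 1 or C3 replicate 1; with the replicate block it was 8, beside 25.9% of all genes.

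The mean level of the 43 genes did not separate the HAP1 lines, and it varied between the libraries of some lines. As a mean of log2(FPKM + 1), the HAP1 lines lay close together, from 5.67 ± 0.285 in C1 to 5.90 ± 0.0412 in C6, with 5.81 ± 0.137 in WT (SD, n = 4). The clone libraries numbered 2 were low in C1 (5.25), C2 (5.60), C3 (5.55) and C4 (5.58), whereas WT replicate 2 was at 5.93. Those of C5 (5.82) and C6 (5.88) were not low.

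Against the WT library of the same number, the clone mean was lower for 41 of the 43 genes in number 2 (median -0.29), higher for 33 in number 3 (median 0.16), and mixed in numbers 1 (26 higher, median 0.058) and 4 (22 higher, median 0.00065). Each comparison rests on 1 WT library, and the mean level of these was 5.87, 5.93, 5.61 and 5.83 in numbers 1 to 4. *ASNS*, a target of the amino acid stress response, was at 451, 428 and 434 FPKM in the replicates 2 of C1, C2 and C4, at 154 FPKM in that of C3 and at 251 FPKM in that of WT. Its part in these levels was not tested. C1 rests on one such library: the median of the 43 genes was -0.14 with its replicate 2 and 0.050 without it.

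**Figure D3:**
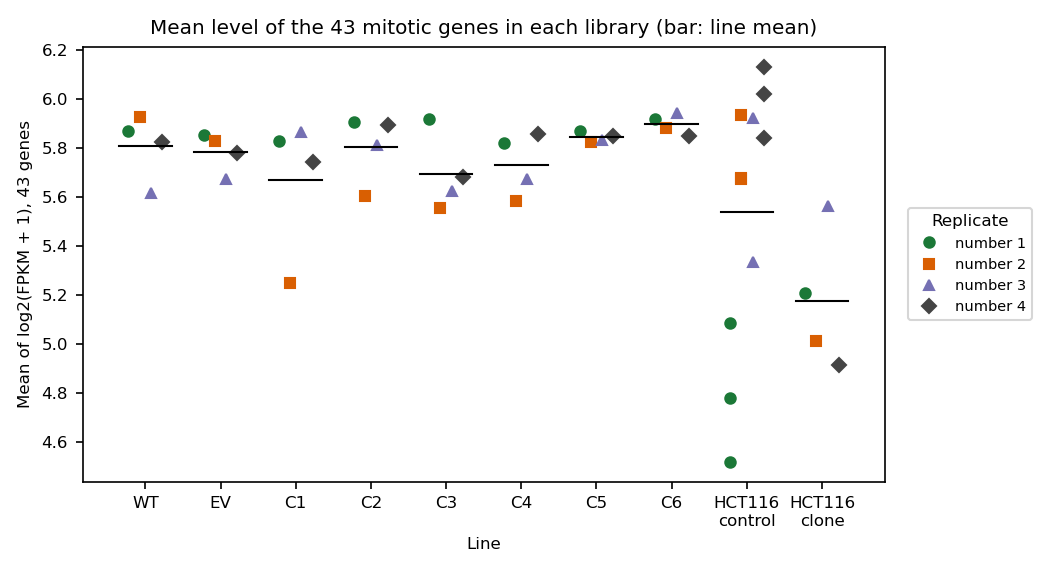
Mean of log2(FPKM + 1) over the 43 genes in each of the 47 libraries (vertical axis, not starting at 0), by line; shape and colour give the replicate number and the bar is the mean of the line. The low clone libraries of HAP1 are those numbered 2 in C1 to C4, and the 3 HCT116 controls numbered 1 lie between 4.52 and 5.08, below the other controls.

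In HCT116, 42 of the 43 genes had a lower mean in the clone than in the controls, but none was called over all 15 libraries. With limma 0 of 12960 genes were called at all (0%), and 2 of the 43 and 10.4% of all genes had an unadjusted p under 0.05. The median log2 difference of the 43 genes was -0.38, beside 0.0043 over all genes, and the only gene above 0 was *CDC25B* (0.093, SE 0.17), while 50.9% of all genes were above 0. The controls spread widely: their mean level of the 43 genes was 5.54 ± 0.536 (SD, n = 11) on the log2(FPKM + 1) scale, against 5.17 ± 0.287 in the clone (n = 4).

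Most of that spread followed the replicate number. The 3 controls numbered 1 had 4.78 (WT), 4.52 (EV1) and 5.08 (EV2), while the 6 controls numbered 2 and 4 lay between 5.67 and 6.13. The clone had 5.21, 5.01, 5.56 and 4.91 in replicates 1 to 4. Within number 1 the clone was higher for 40 of 43 genes (median 0.42); within numbers 2 and 4 it was lower for 42 of 43 (medians -0.77 and -1.15); within number 3, which holds both libraries whose NUP58 level goes against their label, 21 genes were higher and 22 lower (median -0.062). *ASNS* was at 218 to 316 FPKM in the 3 controls numbered 1 and at 75.3 FPKM in the clone library of that number, but was also high, at 350 FPKM, in EV1 replicate 3, whose mean of the 43 genes was 5.92. What part this had was not tested.

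*CCNB1* shows the pattern in a single gene. In the clone it was at 117, 100, 179 and 78.5 FPKM in replicates 1 to 4. The controls numbered 1 had 83.8, 66.9 and 92.9 FPKM, those numbered 2 had 195, 183 and 210 FPKM, those numbered 3 had 195 and 135 FPKM, and those numbered 4 had 235, 223 and 259 FPKM. The clone thus lay above its controls in number 1 and below them in numbers 2 and 4.

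*CDC20* and *PLK1* went the same way. *CDC20* was at 129, 119, 253 and 92.0 FPKM in the clone, against 89.6 to 122 FPKM in the controls numbered 1 and 212 to 351 FPKM in those numbered 2 and 4. *PLK1* was at 57.6, 51.2, 96.3 and 42.7 FPKM in the clone, against 35.1 to 46.8 FPKM in the controls numbered 1 and 90.7 to 145 FPKM in those numbered 2 and 4.

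**Figure D4:**
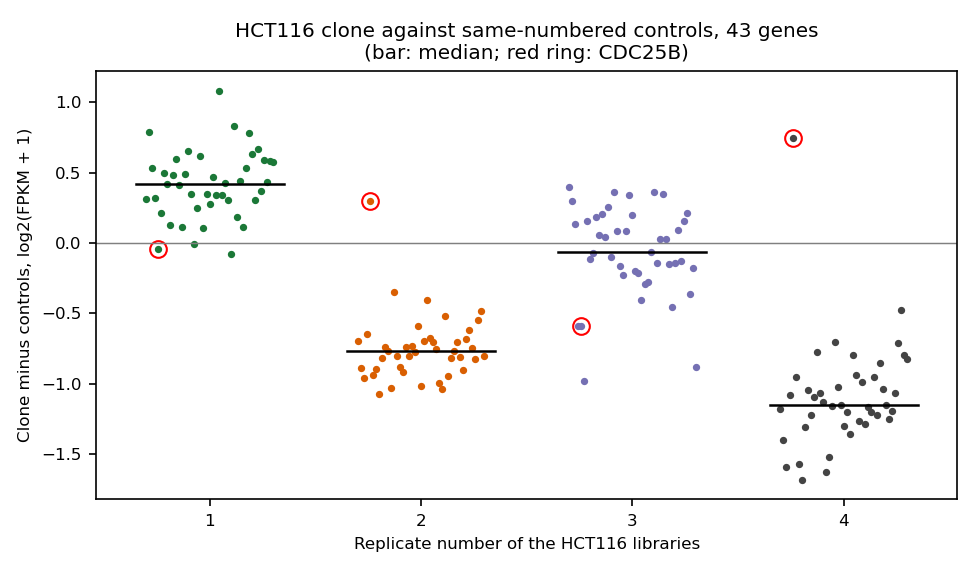
Log2 difference on the log2(FPKM + 1) scale between the HCT116 clone library and the mean of the controls of the same replicate number, for each of the 43 genes (points); the bar is the median and the red ring marks CDC25B. The medians are 0.42, -0.77, -0.062 and -1.15 in numbers 1 to 4, and CDC25B lies on the other side of 0 from the bulk of the genes in numbers 1, 2 and 4.

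Leaving out libraries by number changed the count. Without the numbers 3 alone none of the 43 genes was called (5.92% of all genes were) and their median was -0.47, and without the numbers 1 alone none was called either (0%). Without both, a choice made after the values by number had been seen, 42 of the 43 were called, 41 lower and 1 higher. The higher one was *CDC25B* (log2 difference 0.52), and *MKI67* was not called. Of all genes 22.2% were called, and the median of the 43 was -0.94. That fit kept only numbers 2 and 4, in which the clone was already known to be lower for 42 of 43 genes, so its calls are a description of 2 clone and 6 control libraries and are no test of the clone.

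*CDC25B* differed from the other 42 genes in HCT116 in the sign of its mean difference. In the clone it was at 109, 128, 63.4 and 165 FPKM in replicates 1 to 4, and in the 11 controls between 82.9 and 120 FPKM with a median of 103 FPKM. Clone replicates 2 and 4 lay above every control and the library labelled clone replicate 3 lay below every one. Over all 15 libraries the log2 difference was 0.093 (SE 0.17, adjusted p = 0.874, limma). Against the controls of the same number it was -0.045, 0.30, -0.59 and 0.74 in numbers 1 to 4. Number 3 holds both libraries whose NUP58 level goes against their label. In HAP1 the same gene was lower in all clone libraries.

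The effect in HAP1 and the effect in HCT116 were compared by an interaction term over all 47 libraries. The HAP1 effect was higher for 40 of the 43 genes (47.6% of all genes), with a median difference of 0.36 against -0.015 over all genes. With limma 0 of the 43 passed the threshold, 7 had an unadjusted p under 0.05 (14.1% of all genes did), and 1.8% of all genes were called. *CDC25B* came closest, with a difference of -0.53 (SE 0.17, adjusted p = 0.088). Leaving out the HCT116 libraries numbered 3 gave 1 call of 43, with 6.67% of all genes called.

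Between the unedited cells of the 2 lines the genes differed more, but no more often than genes at large. Of the 43, 25 were called, 21 higher in HAP1 and 4 lower, while 68% of all 13538 genes were called (39.5% higher and 28.5% lower). The median log2 difference was 0.45, beside 0.10 over all genes, and 0.08 when the HCT116 libraries numbered 1 and 3 were left out. Without EV2 replicate 3, the control whose NUP58 level goes against its label, 22 were called and the median was 0.43. In HAP1 WT and EV the means ran from 1.38 FPKM in *UBE2C* and 11.6 FPKM in *CENPE* to 195 FPKM in *CCNB1*, with *PTTG1*, the securin that holds separase back, at 193 FPKM. These highest 2 did not differ beyond their spread. The HCT116 controls ran from 6.75 FPKM in *CENPE* to 205 FPKM in *CDC20*.

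The gene that set the lines furthest apart was *UBE2C* (chromosome 20, positions 45812576 to 45816957, plus strand, GRCh38), the ubiquitin-conjugating enzyme of the anaphase promoting complex. In the 32 HAP1 libraries it lay between 0.164 and 2.93 FPKM with a median of 1.26 FPKM, and in the 15 HCT116 libraries between 82.7 and 305 FPKM with a median of 137 FPKM. The 2 lines did not overlap. The log2 difference between unedited HAP1 and HCT116 was -6.11 on the log2(FPKM + 1) scale (SE 0.19, adjusted p = 6.7e-18, limma).

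Its neighbours within 100 kb were read in both lines: *DNTTIP1* had medians of 14.3 FPKM in HAP1 and 28.5 FPKM in HCT116, *SNX21* 5.80 and 7.27 FPKM, *ZSWIM1* 5.04 and 5.53 FPKM, *ZSWIM3* 2.54 and 0.820 FPKM, and *ACOT8* 18.7 and 9.96 FPKM. The largest of these differences were those of *PLTP*, with 21.2 and 3.62 FPKM (log2 difference 3.12), and *CTSA*, with 35.2 and 79.0 FPKM (log2 difference -1.14). The processed pseudogene *UBE2CP5* had a median of 3.77 FPKM in HAP1 and 1.92 FPKM in HCT116. Reads shared between the gene and such a copy could be split in the counting, which is a limit on the low HAP1 value. *UBE2S*, the other conjugating enzyme of the same complex, lay between 116 and 212 FPKM in HAP1 and between 78.3 and 241 FPKM in HCT116.

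*CDC25B* was the other gene lower in every HAP1 than in every HCT116 library, with 23.6 to 47.03 FPKM against 63.4 to 165 FPKM and a log2 difference of -1.33 (SE 0.071, adjusted p = 1.59e-13, limma) between unedited cells. *ANLN*, the anillin scaffold of the contractile ring, was lower by 0.85 (SE 0.18) and *NEK2*, a centrosome kinase, by 0.56 (SE 0.21). Their ranges in the 2 lines overlapped. The *NEK2* call was lost with HAP1 WT alone in place of WT and EV (adjusted p = 0.153, limma).

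Higher in every HAP1 than in every HCT116 library were *NDC80* (69.1 to 179 FPKM against 15.8 to 47.2 FPKM), *TOP2A* (105 to 178 FPKM against 21.2 to 65.0 FPKM) and *KIF4A*, a chromosome-bound kinesin (22.8 to 43.4 FPKM against 6.22 to 21.3 FPKM). Over all genes 11.6% were higher and 9.83% lower in this way. The log2 differences between unedited cells were 1.48 (SE 0.17) for *NDC80*, 1.48 (SE 0.19) for *TOP2A* and 1.23 (SE 0.19) for *KIF4A*. *KIF4A* lies on the X chromosome, and 38 of its 39 neighbours within 5 Mb were also higher in HAP1 (median 1.203). The neighbours of *TOP2A* had a median of -0.019 and those of *NDC80* one of 0.19. *KIF11*, the motor that pushes spindle poles apart, was higher by 1.01 (SE 0.18) and *PLK1* by 0.77 (SE 0.22). For *PLK1* the HCT116 controls numbered 1 lay at 35.1 to 46.8 FPKM. Those numbered 2 and 4, at 90.7 to 145 FPKM, overlapped unedited HAP1, at 117 to 157 FPKM.

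The 43 genes moved together from library to library. Over the 32 HAP1 libraries, with each library taken as its deviation from the mean of its line, the median Pearson r over the 903 pairs of genes was 0.47, against 0.014 over all pairs of genes tested. It was 0.49 when the mean of each replicate number was removed too. Over the 15 HCT116 libraries it was 0.93, and 0.89 with the replicate numbers removed. Over the 12 HCT116 libraries without the numbers 3 it was 0.95. These are descriptions: genes of one library share its depth, its culture and its handling.

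Single genes differed in how far they followed the rest. *TPX2* followed the mean of the other 42 most closely in HAP1 (r = 0.94 over 32 libraries), with *ECT2* at 0.92 and *PLK1* at 0.92. *NDC80* ran against it (r = -0.59) and was at 155 FPKM in C1 replicate 2 and at 145 FPKM in C4 replicate 2, and between 72.6 and 106 FPKM in WT. *UBE2C* had r = -0.25 at its low level, and 32 of the 43 genes were above 0.5. In HCT116 42 of the 43 were above 0.5, *NDC80* (0.91) and *UBE2C* (0.93) included, and *CDC25B* alone was below 0 (r = -0.50 over 15 libraries, and -0.48 over the 12 without the numbers 3).

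Outside the 43, the genes whose deviations were most like their mean in HAP1 were *CEP55*, a midbody protein (r = 0.91 over 32 libraries), *SNX2*, *COMMD8*, *IQGAP1*, *CDCA3*, *PFN2*, *ASPM*, *RACGAP1*, *AIFM1* and *COPB2* (r = 0.86). In HCT116 *CEP55*, *CDCA3* and *RACGAP1* stood at 0.98 to 0.99 over 15 libraries, whereas *IQGAP1* stood at -0.064 and *COPB2* at 0.25. The correlations that follow also used deviations from line means, which in HCT116 are the means of the clone and of the controls. Differences between lines, such as that of NUP58 between clones and unedited cells, are therefore not in them. Within lines, the mean level of the 43 genes correlated with that of 28 replication genes at r = 0.37 (Spearman 0.28) in HAP1 and 0.95 (Spearman 0.89) in HCT116. With NUP58 it correlated within lines at -0.0077 (Spearman -0.08) in HAP1 and 0.78 (Spearman 0.86) in HCT116. With *ASNS* the values were -0.38 (Spearman -0.19) and -0.49 (Spearman -0.42). Over the 12 HCT116 libraries without the numbers 3 these were 0.96 (Spearman 0.87) with the replication genes, 0.92 (Spearman 0.93) with NUP58 and -0.75 (Spearman -0.57) with *ASNS*.

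Other cell cycle genes, from lists of known roles, were read in the mean of the 6 HAP1 clones in the same way, beside 3.43% of all genes lower and 3.17% higher. Of 28 replication genes 1 was lower, *CCNE1*, the cyclin E1 of S phase entry (log2 difference -0.55, adjusted p = 0.0126, limma), with a list median of -0.16. Of 16 subunits and enzymes of the anaphase promoting complex 3 were lower, *CDC16* (-0.44), *CDC26* (-0.48) and *UBE2S* (-0.30). Within 5 Mb of *CDC16*, 22 of the 26 neighbours were lower too (median -0.28). *CDC16* starts at position 114234887 of chromosome 13, which also carries NUP58 (start 25301524). Whether this position plays a part was not tested. Of 17 condensin and cohesin genes none was called, of 20 other kinetochore genes 1 was lower, *CENPT* (-0.42), and of 12 genes of the DREAM and MuvB complexes 1 was lower, *LIN52* (-0.48). Of 6 CDK inhibitors tested 1 was higher, *CDKN1B*, which encodes p27 (0.53, SE 0.13, adjusted p = 0.0116). Each of these 7 calls was lost without at least 1 WT library: *CCNE1*, *UBE2S*, *CENPT*, *LIN52* and *CDKN1B* without WT replicate 3 (adjusted p = 0.0516 to 0.114), *CDC16* and *CDC26* without WT replicate 1 (0.057 and 0.122), and *CCNE1*, *CDC26* and *CENPT* without WT replicate 4 (0.0569, 0.145 and 0.0648). *CDC26* was also lost without clone C5 (0.0872), *CDC16* without clone C6 (0.0562) and *LIN52* with EV in place of WT (0.0587).

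In C6 6 of the 28 replication genes were lower, beside 5.39% of all genes, with a list median of -0.28. *CCNE2*, the cyclin E2, fell by 1.98 on the log2 scale (SE 0.25, adjusted p = 0.000937, limma) and *RRM2*, the small subunit of ribonucleotide reductase, fell by 1.10 (adjusted p = 0.0222). Of the CDK inhibitors *CDKN1B* (0.62) and *CDKN2C* (0.57) were higher there and *CDKN1A*, which encodes p21, was lower (-2.50, SE 0.54, adjusted p = 0.016). In the HCT116 clone no gene of any of these lists was called over the 15 libraries, as none was over all genes.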

How the data were processed

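RNA-seq was read from 1 table of 57507 genes by 47 libraries. Adaptor-trimmed reads were mapped by the authors using STAR (GRCh38.p13), gene levels came from RSEM, and FPKM values were deposited without further normalisation; no column was left unused. Depth is not recoverable as counts from FPKM, so no counting interval is given. The totals were 604053 to 654081 in HAP1 and 619798 to 721992 in HCT116, and depth relative to WT replicate 1, estimated from the lowest values, was 0.749 to 1.16. No pair of libraries was identical.

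Values were tested as log2(FPKM + 1) with limma 3.58.1 (trended variances) in R 4.3.3, over genes with a mean of at least 1 FPKM in the libraries of the fit, with Benjamini-Hochberg adjustment over all genes tested and calls at an adjusted p under 0.05. Log2 differences on this scale understate changes of low genes. The fits were tested on simulated data. Tables and correlations used Python 3.11.15 with pandas 2.3.3, and positions came from GENCODE (GRCh38); 56417 gene identifiers matched.

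The members and lists were chosen with earlier results of these data known. Genes are named where they were called in the mean of the 6 clones, where they were among the 5 smallest adjusted p in another comparison, where they stand for a role (11 genes fixed by name), or where another list had a call; other members named beside these were chosen after their values were seen. Replicate numbers pair C1 to C4 and EV with WT (r over 0.1 in 4 of 4 numbers each), from the data, since the labels do not say what a number marks. Alternatives were the pseudocount, the filter, the scaling, the replicate block, the control, 1 fit for all HAP1 libraries, and each library left out; fits without the libraries numbered 1, 2, or 1 and 3, and correlations without the HCT116 libraries numbered 3, were added after seeing the data.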

Additional observations from a re-analysis of the deposited data

Results flagged for a closer look

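Within groups of 4 to 10 libraries, 9 of 99 sets of values held 1 library far from the others (Dixon's test at 95%, which chance passes in about 1 set of 20). The library labelled HCT116 clone replicate 3, whose NUP58 level was that of unedited cells, stood apart in 4 genes: *CDK1* at 157 FPKM (the others at most 86.2), *SPC24* at 15.8 FPKM (at most 6.79), *UBE2C* at 180 FPKM (at most 101) and *CENPF* at 19.3 FPKM (at most 16.9). C1 replicate 2 was low in *TTK* at 20.2 FPKM (the others at least 33.5) and *CENPE* at 6.41 FPKM (at least 16.6). C3 replicate 1 was high in *HMMR* at 65.6 FPKM (the others at most 42.3) and *ECT2* at 63.4 FPKM (at most 45.9). C6 replicate 2 was high in *SPC24* at 16.6 FPKM (the others at most 12.4).

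The 6 HAP1 clones differed from each other in *HMMR* (adjusted p = 0.0367) and *TTK* (adjusted p = 0.0405) by limma's F test over 13180 genes.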

How the results depend on the processing

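Of the counts of calls and medians recomputed under other settings, 123 stayed within the limits set for them and 16 moved. Of those with 1 library left out, 257 stayed and 31 moved. A value that stayed within its limits can still have changed. The median difference between the unedited cells of the lines fell without the HCT116 libraries numbered 1 and 3, as given above, and was counted as having stayed. Of single genes, 178 kept their side of the threshold and 19 lost it, and with 1 library left out 663 kept it and 73 lost it; no direction reversed. The cause of these changes was not tested. In 1 fit of all 32 HAP1 libraries C1 had 3 calls, C2 2 and C4 1. At an unadjusted p under 0.01 with a fold change over 2, C5 and C6 had 0. With the replicate number as a block C4 had 2 calls, C5 7 and the difference among clones 8; the block changed no other count by more than 1.5 times. Among clones there were 0 calls without the filter and 1 with median ratio scaling. Without the HCT116 libraries numbered 1 and 3 the clone had 42 calls (41 lower and 1 higher) and a median of -0.94. These libraries were left out after their values were seen. The difference between the lines had 1 call without the HCT116 libraries numbered 3. The median pairwise r was 0.47 in HAP1 and 0.93 in HCT116, or 0.89 with replicate numbers removed and 0.95 without the numbers 3 there.

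With single libraries left out, calls ranged from 2 to 4 in the mean of the 6 clones (2 without WT replicate 2), from 0 to 4 in C5, from 1 to 9 in C6 and from 0 to 5 among clones, and the median in C1 from -0.19 to 0.050. In the same-numbered HCT116 libraries the clone deviated with its controls in 1 of 4 numbers (r from -0.36 to 0.21), and C5 and C6 with WT in 2 of 4 each, so the clone is not paired with its controls there, although the HCT116 controls themselves split by number.

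All values are FPKM of bulk RNA from 4 libraries a line, each clone is a single clone, and 23 of the 43 genes overlap another gene, 19 on the opposite strand. *CDC20P1*, a pseudogene of *CDC20*, was read at a median of 10.6 FPKM in HAP1, so some reads of *CDC20* may be assigned to it.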
